A study of Mus musculus with 18 samples.

Results

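The difference examined here is how far the effect of losing ADAM10 depended on the splenic cDC2 population, that is, the knockout effect in CD4+ cDC2 minus the knockout effect in CD4-CD8- cDC2. Conventional dendritic cells (cDC) are antigen-presenting cells, and cDC2 are the branch that presents mainly to CD4 T cells. Gene expression was measured by RNA sequencing of poly(A) RNA in spleen cells of C57BL/6 mice, wild type (WT) or deficient for ADAM10 (KO). The contrast used 12 of the 18 libraries in 4 groups of 3, namely WT CD4+ cDC2, KO CD4+ cDC2, WT CD4-CD8- cDC2 and KO CD4-CD8- cDC2. All were sorted as living cells carrying CD11c and MHC class II, after enrichment on CD11c. The other 6 libraries, CD8+ cDC1 of both genotypes, entered the gene filter, the scaling and the estimate of spread but not the contrast. They are quoted where a value needs them. The labels do not say how or in which cells Adam10 was deleted, nor the age of the mice, nor whether each library of a group is its own animal. The spread behind each p-value is thus that of the libraries, which may be technical.

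ADAM10 is a membrane protease that cuts the outer part of surface proteins. Its cut of a ligand-bound Notch receptor lets the inner part travel to the nucleus and act with the DNA-binding protein RBPJ. In the spleen, Notch2 signalling maintains a cDC2 subset that carries the adhesion molecule ESAM and includes most CD4+ cDC2, while ESAM-low cDC2 share genes with monocytes.

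Totals were 12358884 to 19557469 estimated counts per library. Levels are given as CPM (counts scaled to a fixed library total), which compare libraries but not genes of different length. In CD4+ cells Cd4 was at 443 ± 37.2 CPM (WT) and 433 ± 31.2 CPM (KO; SD, n = 3 for each), against 6.40 ± 0.482 and 4.00 ± 0.851 in CD4-CD8- cells, so the sorted populations matched their labels. Cd8a stayed at or under 6.40 CPM in all 12 libraries, against 1060 ± 69.8 in WT CD8+ cells. Adam10 itself fell to a like extent in both populations, with 80.5 to 130 CPM in WT and 41.6 to 45.9 in KO CD4+ libraries, and 88.3 to 138 in WT and 41.7 to 47.4 in KO CD4-CD8- libraries. Its interaction was 0.07 ± 0.31 on the log2 scale (± SE, adjusted p = 0.959). Ribosomal protein genes and mitochondrially encoded genes had 0 of 33 and 0 of 13 members with a called interaction in edgeR, 7 and 0 at an unadjusted p under 0.05, and 0 and 0 in DESeq2 and in limma on log2(TPM + 1). Of all 13381 genes tested, 2080 had an interaction at an unadjusted p under 0.05 in edgeR.

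Of 13381 genes tested, 503 (3.76%) had a called interaction (edgeR quasi-likelihood F test, Benjamini-Hochberg adjusted p under 0.05). The change on ADAM10 loss was more positive in CD4+ cells for 332 genes (2.48%) and more negative for 171 (1.28%). Of the 286 that differed by at least 2-fold (2.14%), 251 were positive (1.88%) and 35 negative (0.262%). Without 1 library the 503 fell to 306 (WT CD4+ library 2), 318 (KO CD4+ library 3), 312 (WT CD4-CD8- library 1) or 330 (KO CD4-CD8- library 2). Of all 503 calls 66.0% were positive, against 89.2% (346 to 42) in limma on log2(TPM + 1) and 91.7% (231 to 21) on log2(TPM + 0.1). By comparison, the knockout effect itself was called for 4692 genes in CD4+ cells (35.1%) and 3471 in CD4-CD8- cells (25.9%). Of 2603 genes called in both, 2561 changed in the same direction. The other 42 changed in opposite directions, and each of these had a called interaction. Among 2089 genes called in CD4+ cells alone, 164 had a called interaction, and among 868 called in CD4-CD8- cells alone, 74 did. For the remainder of those lists a difference between populations was not shown.

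**Figure D1:**
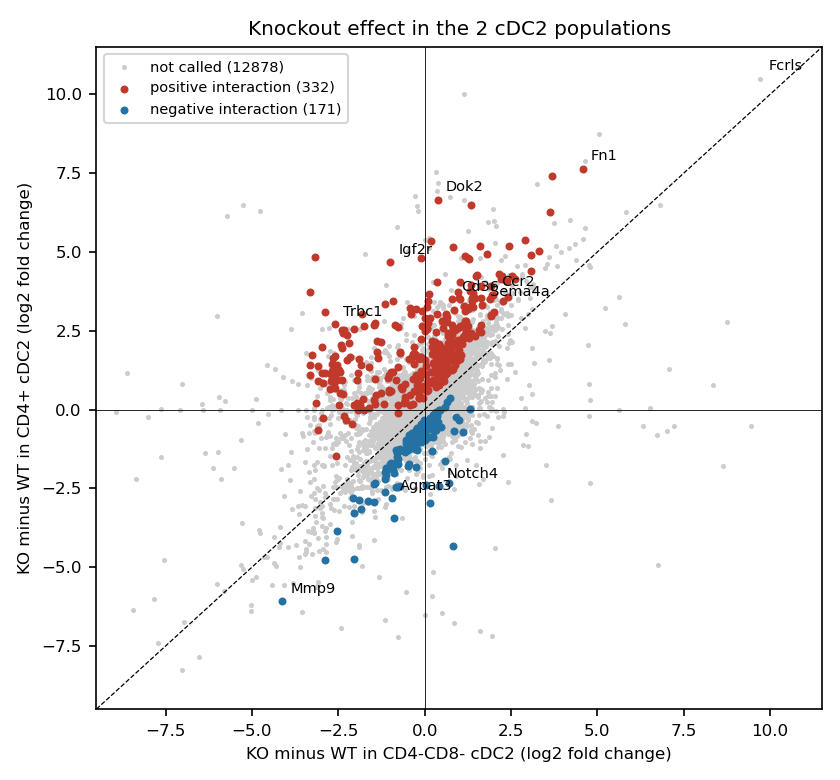
Knockout effect (log2 fold change, KO minus WT) of each gene in CD4-CD8- cDC2 (x axis) and CD4+ cDC2 (y axis), with the 332 positive interactions in red, the 171 negative ones in blue and equality dashed. Trbc1 and Igf2r lie in the upper left, where a gene rose in CD4+ and fell in CD4-CD8- cells, and Fcrls lies near the dashed line.

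The 332 positive genes fall into classes by what happened in each population. The largest held 146 genes that rose in both and rose more in CD4+ cells. Another 91 rose in CD4+ cells and were not called in CD4-CD8- cells, 61 were not called in CD4+ cells and fell in CD4-CD8- cells, and 33 rose in CD4+ and fell in CD4-CD8- cells. One gene, Tcf7, fell in both and fell further in CD4-CD8- cells. Of the 171 negative genes, 74 fell in both and fell further in CD4+ cells, and 73 fell in CD4+ cells and were not called in CD4-CD8- cells. A further 13 were not called in CD4+ cells and rose in CD4-CD8- cells, 9 fell in CD4+ and rose in CD4-CD8- cells, and 2 (Pold4 and Alox5ap, both rising) rose less in CD4+ cells.

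Transcripts of lymphocytes differed among the 4 groups and touch the positive genes directly. Summed over 16 T cell markers, libraries held 95.0 to 107 CPM in WT CD4+, 43.3 to 68.1 in KO CD4+, 347 to 621 in WT CD4-CD8- and 41.9 to 101 in KO CD4-CD8- cells. For 17 NK cell markers the ranges were 247 to 274, 166 to 232, 961 to 1745 and 409 to 557 CPM. The WT CD4-CD8- libraries were thus the highest on both lists, with no overlap with the other groups. No T cell marker was at 0 throughout a group, and among the NK markers only Klra8, an NK cell receptor, was at 0, in the KO CD4+ group. In bulk RNA, fewer cells of a type and less RNA per cell cannot be told apart.

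Of the T cell markers 14 of 16 tested had a positive interaction and 0 a negative one (2.48% and 1.28% of all genes did). Their median was 3.88 on the log2 scale against −0.02 over all genes. Trbc1, a constant region of the T cell receptor, lay at 0.242, 0.254 and 0.467 CPM in WT CD4+, 1.05, 1.88 and 3.44 in KO CD4+, 28.5, 11.7 and 17.9 in WT CD4-CD8-, and 5.34, 0.921 and 3.14 in KO CD4-CD8- libraries. Only WT CD4-CD8- cells were above 10 CPM. Its interaction was 5.30 ± 0.85 (adjusted p = 0.00184). Lat, Cd3d and Cd27, all of T cell receptor signalling or costimulation, rose from under 1 CPM to at most 2.39 CPM in CD4+ cells and fell in CD4-CD8- cells, with interactions of 4.95 ± 0.79, 4.46 ± 0.90 and 4.86 ± 0.60. Of the 17 NK markers 3 were positive (2.48% of all genes were), with a list median of 2.43: Klrb1c (NK1.1), Klre1 and the activating receptor Klrk1. Of the 17 interactions 15 lay above 0 and 2 below. DESeq2 called 5 of these markers and limma on log2(TPM + 1) called 10. Klrb1c stood at 51.1 to 115 CPM in WT CD4-CD8-, 5.37 to 12.7 in KO CD4-CD8-, and at most 1.27 in CD4+ libraries of either genotype. Of 7 innate lymphoid markers tested 4 were positive (2.48% of all genes were), namely Il7r, Gata3, Il1rl1 and Tox. Summed over 11 such markers, libraries held 12.4 to 13.8 CPM in WT CD4+, 31.5 to 43.1 in KO CD4+, 46.9 to 77.7 in WT CD4-CD8- and 44.8 to 56.6 in KO CD4-CD8- cells. This sum was higher in KO CD4+ than in WT CD4+ libraries, while the summed T and NK markers were lower. Such sums follow their highest members. Gene by gene in CD4+ cells, 4 of 16 T cell markers rose and 2 fell, with a median knockout effect of 1.43. Of 17 NK markers 1 rose and 2 fell, with a median of −0.66. Of all genes 18.5% rose and 16.6% fell there. In CD4-CD8- cells 15 of 16 T cell markers and 14 of 17 NK markers fell and 0 rose, with medians of −2.56 and −2.65. Of all genes 14.6% rose and 11.3% fell in those cells. The part of lymphoid transcripts in the positive interactions was not tested beyond the covariate fit given next.

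**Figure D2:**
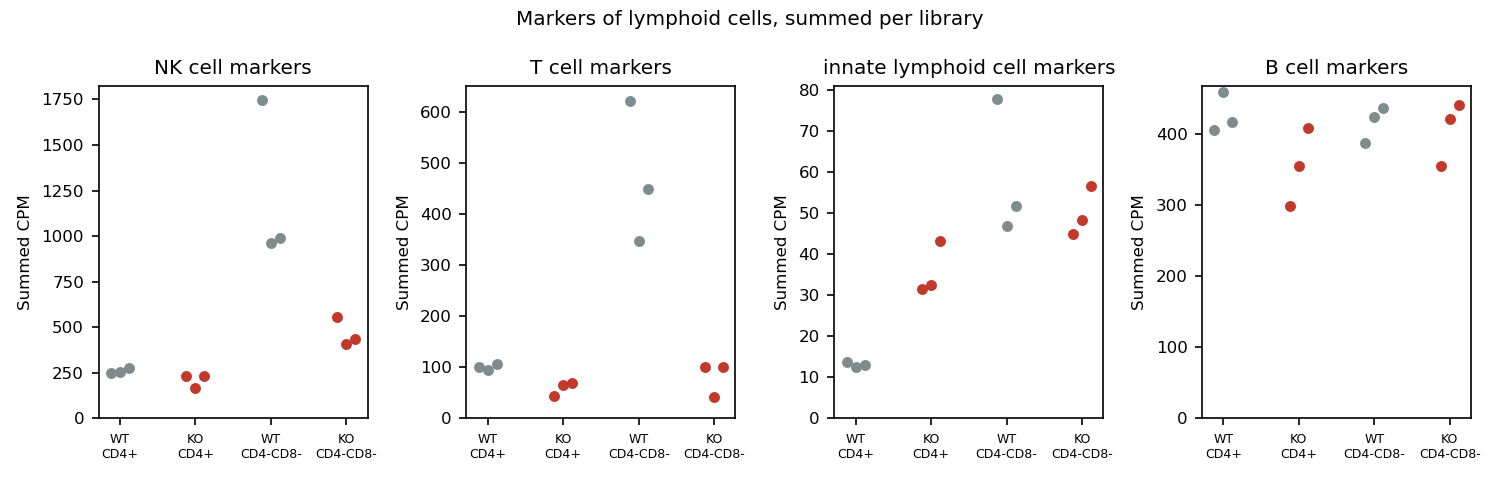
Summed CPM (y axis, linear from 0) of NK, T, innate lymphoid and B cell markers in each of the 12 libraries, grouped on the x axis, with WT in grey and KO in red. WT CD4-CD8- libraries reach 1745 CPM for NK and 621 CPM for T cell markers, while B cell sums lie between 298 and 459 CPM in all groups.

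The mean log2 level of these NK and T cell markers was therefore also entered as a covariate. It ran from 0.04 to 0.18 in WT CD4+, 0.32 to 0.71 in KO CD4+, 4.36 to 5.34 in WT CD4-CD8- and 1.49 to 2.85 in KO CD4-CD8- libraries. Since these ranges do not overlap, score and group can hardly be told apart in such a fit, and 11 genes were still called, 8 positive and 3 negative, all 11 among the 503. The 11 are Ccr2, Sema4a, Cd36, Plin2, Dok2, Igf2r, Slc11a1, Vat1, Agpat3, Sema4f and Gm49388. For every other gene given below the call ends with that covariate. Without it, 106 genes (88 positive, 18 negative) were called under each of the other 22 alternative settings, and 8 under all of them: Agpat3, Ccr2, Cd36, Dok2, Plin2, Sema4a, Slc11a1 and Vat1. Slc11a1 and Vat1 were picked out for this after their values were seen.

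Promoter windows are shown for 7 of these 8 genes, those with a window in the table used, since their interaction was called under all settings. Each runs from 250 bases before to 50 bases after the annotated start (RefSeq, GRCm38.p6), 5′ to 3′ on the gene's strand. Capitals mark TGGGAA or its reverse complement TTCCCA, the core letters that RBPJ is known to bind.
Ccr2, chr9:124101933-124102232, plus strand: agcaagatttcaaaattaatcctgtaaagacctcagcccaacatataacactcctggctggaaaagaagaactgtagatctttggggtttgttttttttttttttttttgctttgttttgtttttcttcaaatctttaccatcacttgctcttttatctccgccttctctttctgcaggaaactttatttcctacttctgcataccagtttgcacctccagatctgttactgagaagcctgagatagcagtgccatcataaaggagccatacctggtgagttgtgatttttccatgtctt
Sema4a, chr3:88461133-88461432, minus strand: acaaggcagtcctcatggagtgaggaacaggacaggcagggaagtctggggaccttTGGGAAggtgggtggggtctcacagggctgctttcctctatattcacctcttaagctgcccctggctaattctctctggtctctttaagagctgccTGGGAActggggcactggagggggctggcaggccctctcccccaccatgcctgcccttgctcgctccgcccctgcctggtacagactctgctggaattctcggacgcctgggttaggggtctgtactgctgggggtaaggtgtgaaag
Cd36, chr5:17835847-17836146, minus strand: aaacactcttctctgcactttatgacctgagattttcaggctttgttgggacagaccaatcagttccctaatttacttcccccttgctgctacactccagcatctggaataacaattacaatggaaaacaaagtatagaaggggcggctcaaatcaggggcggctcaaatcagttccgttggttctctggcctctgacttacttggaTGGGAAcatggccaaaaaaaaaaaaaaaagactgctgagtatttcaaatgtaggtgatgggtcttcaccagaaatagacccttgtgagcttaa
Plin2, chr4:86670010-86670309, minus strand: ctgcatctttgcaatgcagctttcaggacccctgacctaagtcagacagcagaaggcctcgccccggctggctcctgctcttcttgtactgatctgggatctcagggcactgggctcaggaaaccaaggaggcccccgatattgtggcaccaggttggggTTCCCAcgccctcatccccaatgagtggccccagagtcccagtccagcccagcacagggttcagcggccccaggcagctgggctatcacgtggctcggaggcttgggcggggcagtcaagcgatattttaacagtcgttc
Agpat3, chr10:78351651-78351950, minus strand: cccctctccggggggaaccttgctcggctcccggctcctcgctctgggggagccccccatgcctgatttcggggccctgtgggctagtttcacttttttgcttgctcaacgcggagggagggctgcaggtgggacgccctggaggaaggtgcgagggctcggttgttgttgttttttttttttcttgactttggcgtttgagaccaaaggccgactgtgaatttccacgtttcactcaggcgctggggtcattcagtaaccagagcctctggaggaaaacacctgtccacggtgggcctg
Slc11a1, chr1:74374953-74375252, plus strand: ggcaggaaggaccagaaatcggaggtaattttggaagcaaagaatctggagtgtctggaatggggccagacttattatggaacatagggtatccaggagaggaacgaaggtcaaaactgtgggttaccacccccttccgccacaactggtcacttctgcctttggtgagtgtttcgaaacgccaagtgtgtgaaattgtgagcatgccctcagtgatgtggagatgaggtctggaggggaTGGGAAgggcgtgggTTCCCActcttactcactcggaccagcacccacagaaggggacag
Vat1, chr11:101466150-101466449, minus strand: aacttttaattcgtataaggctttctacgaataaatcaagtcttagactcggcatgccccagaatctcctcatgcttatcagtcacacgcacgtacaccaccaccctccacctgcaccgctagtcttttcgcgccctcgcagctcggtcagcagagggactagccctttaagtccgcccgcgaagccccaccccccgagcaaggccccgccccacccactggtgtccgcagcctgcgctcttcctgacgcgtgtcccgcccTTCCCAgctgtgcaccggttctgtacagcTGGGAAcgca
The core stood once in the windows of Cd36 and Plin2 and 2 times in those of Slc11a1 and Vat1. Sema4a has 4 windows, of which only the 1 shown held the core, 2 times, and the others did not hold it. The core was not in the windows of Ccr2 and Agpat3 either. On either strand it was in 26.2% of 370 windows of positive genes (261 of 332 genes matched) and in 17.7% of 186 windows of negative genes (133 of 171 matched). Among genes tested it was in 22.9% of windows and among all RefSeq windows in 25.6%. A match is a description of letters only.

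Ccr2, the receptor that brings monocytes to the chemokine CCL2, lay at 70.5, 81.3 and 70.7 CPM in WT CD4+, 917, 779 and 1096 in KO CD4+, 332, 329 and 321 in WT CD4-CD8-, and 1186, 1374 and 1287 in KO CD4-CD8- libraries. The 4 groups did not overlap, and WT CD4+ cells were lowest by a wide margin. Ccr2 (ENSMUSG00000049103.14, chr9:124101950-124113557) rose 12.5-fold in CD4+ and 3.92-fold in CD4-CD8- cells, an interaction of 1.68 ± 0.15 (adjusted p = 1.48e-05).

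Sema4a, a semaphorin on antigen-presenting cells that acts on T cells, showed 37.2, 35.5 and 35.2 CPM in WT CD4+ and 401, 345 and 338 in KO CD4+ libraries, against 132, 115 and 114 in WT and 380, 375 and 381 in KO CD4-CD8- libraries. The WT populations were apart and the KO populations overlapped. It (chr3:88435959-88461182) rose 10.0-fold and 3.14-fold, with an interaction of 1.68 ± 0.12 (adjusted p = 1.91e-06). Sema4a is among the reported ADAM10 substrates, of which 30 were tested. Of these, 7 had a positive and 1 (Havcr2) a negative interaction (2.48% and 1.28% of all genes did), with a list median of 0.34.

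Genes of lipid uptake and storage were among the positive ones. Plin2, which coats lipid droplets (chr4:86648386-86670060), was at 13.9, 17.4 and 14.0 CPM in WT CD4+, 71.5, 72.2 and 68.4 in KO CD4+, 34.7, 36.2 and 39.4 in WT CD4-CD8- and 71.8, 74.7 and 70.8 in KO CD4-CD8- libraries. It differed between WT populations and overlapped between KO populations, and its interaction was 1.24 ± 0.13 (adjusted p = 6.46e-05). For Cd36, a scavenger receptor that takes up fatty acids (chr5:17781690-17888801), levels were 6.83, 6.19 and 6.74 CPM in WT CD4+ and 63.7, 70.1 and 90.6 in KO CD4+ libraries. WT CD4-CD8- libraries held 36.3, 27.9 and 55.4 and KO ones 43.1, 99.7 and 66.1, so these 2 groups overlapped. CD8+ cells held 326 CPM in WT and 496 in KO. Cd36 rose 11.4-fold and 1.74-fold (interaction 2.70 ± 0.38, adjusted p = 6.53e-04). Over 24 genes of LXR targets and lipid handling 4 were positive and 0 negative (2.48% and 1.28% of all genes were), with a median of 0.34. The other members called were the lipid-responsive factor Pparg (1.55 ± 0.33) and the cholesterol exporter Abca1 (2.35 ± 0.42), which rose 4.74-fold in CD4+ cells and had −0.11 ± 0.29 in CD4-CD8- cells. For Pparg the call is lost with a transcript length offset and on log2 TPM.

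Dok2, an adaptor that restrains receptor signalling in blood cells (chr14:70766036-70778495), was close to 0 in WT CD4+ cells alone. Its levels were 0.302, 0.406 and 0.400 CPM there, 33.6, 42.5 and 38.8 in KO CD4+, 23.3, 15.4 and 9.06 in WT CD4-CD8- and 15.8, 19.3 and 27.1 in KO CD4-CD8- libraries. It rose 101-fold in CD4+ cells and was not called in CD4-CD8- cells (0.37 ± 0.30), an interaction of 6.29 ± 0.55 (adjusted p = 1.48e-05). Igf2r, the receptor that carries lysosomal enzymes and removes IGF2 (chr17:12682406-12769664), lay at 0.203 to 0.334 CPM in WT CD4+, 6.16 to 7.08 in KO CD4+, 8.63 to 12.1 in WT CD4-CD8- and 4.37 to 5.58 in KO CD4-CD8- libraries. The groups did not overlap: it rose 25.6-fold in CD4+ cells and fell 1.99-fold in CD4-CD8- cells. Its interaction of 5.67 ± 0.33 had the smallest adjusted p of the named genes (1.05e-07), but it was 0.45 on log2(TPM + 1) and 2.25 on log2(TPM + 0.1), not called in either (adjusted p = 0.730 and 0.114). Slc11a1, a metal transporter of phagosomes, rose 2.74-fold in CD4+ cells and had −0.30 ± 0.12 in CD4-CD8- cells, an interaction of 1.75. Vat1 rose 9.56-fold and 2.50-fold.

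**Figure D3:**
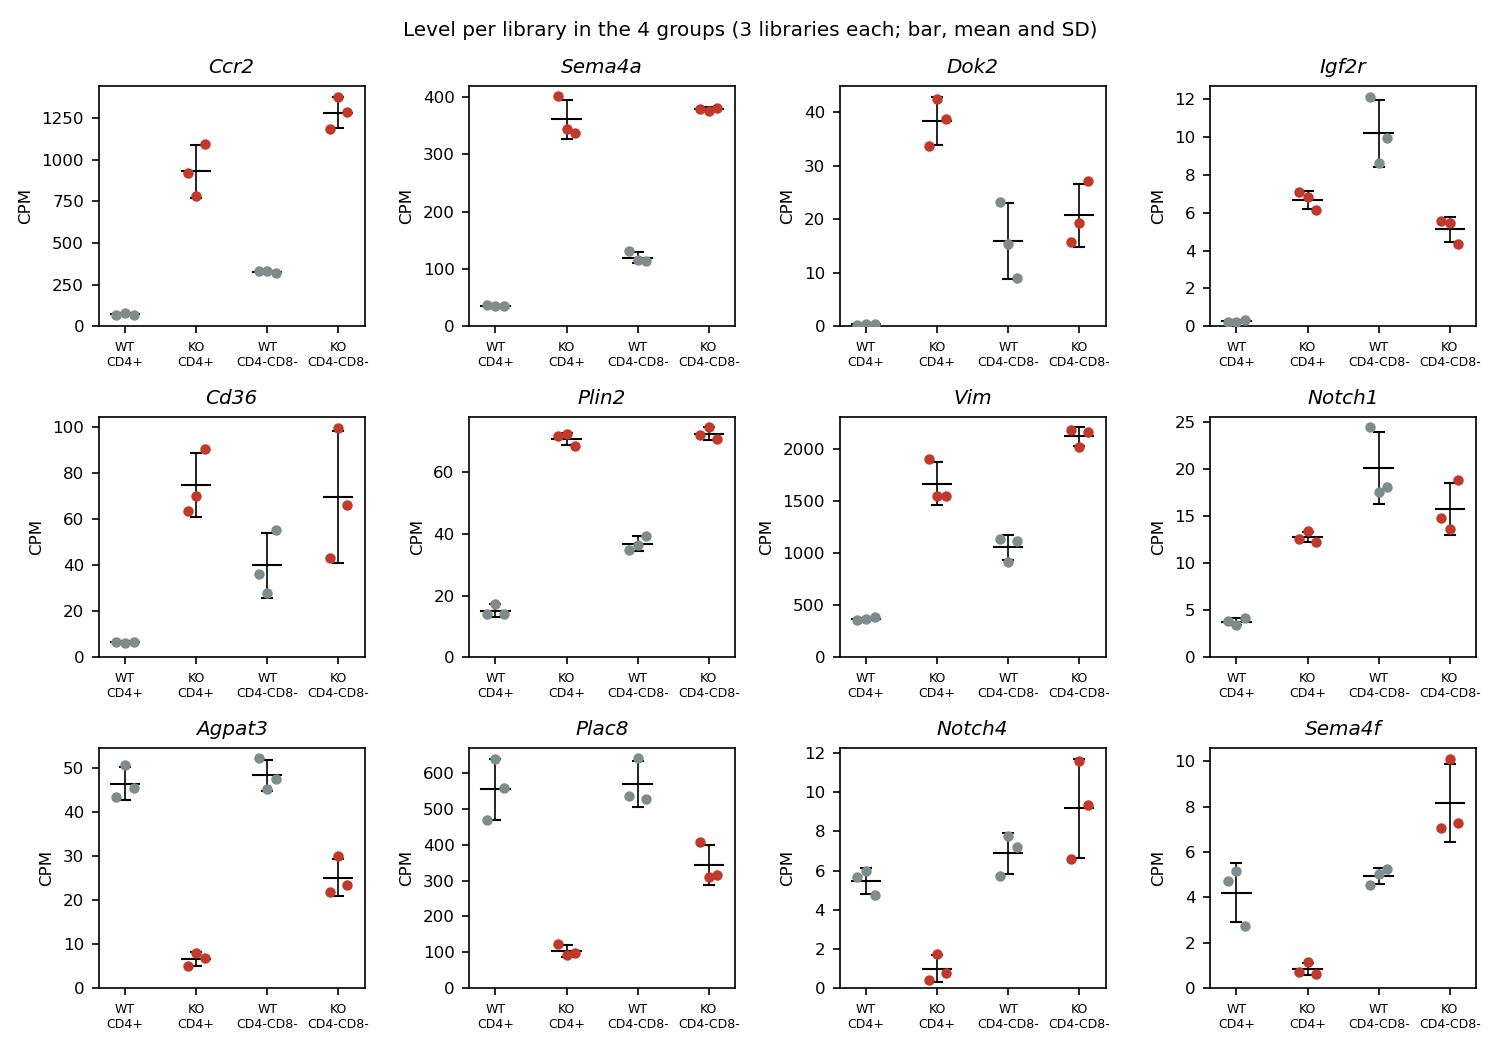
Level in CPM (y axes, linear from 0) of 12 genes in each library of the 4 groups, with WT in grey, KO in red, and black bars for the mean and SD of 3 libraries. In the first 2 rows the WT CD4+ libraries are the lowest of the 4 groups, as for Ccr2 at 70.5 to 81.3 CPM, and in the last row the KO CD4+ libraries are, as for Agpat3 at 4.98 to 8.08 CPM.

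Genes that mark ESAM-low, monocyte-like cDC2 rose in both populations, and several rose more in CD4+ cells. Of 15 tested, 13 rose in CD4+ cells (18.5% of all genes did) and 11 in CD4-CD8- cells (14.6% of all genes did). Their median interaction was 0.60, and 5 were positive and 0 negative (2.48% and 1.28% of all genes were). Among these were Ccr2, the lectin Clec10a, the Fc receptor Fcgr3 and the fractalkine receptor Cx3cr1. Clec10a showed 12.9 to 22.1 CPM in WT CD4+, 522 to 708 in KO CD4+, 38.8 to 58.5 in WT CD4-CD8- and 473 to 518 in KO CD4-CD8- libraries. The KO levels of CD4+ cells lay just above those of CD4-CD8- cells, and the interaction was 1.74 ± 0.30 (adjusted p = 0.00343), with reads shared with its near copy Mgl2 uncertain. Mgl2 itself had 1.08 ± 0.35 (adjusted p = 0.111), and was called with the replicate block (0.0382), the block by genotype and number (0.00638) and no filter on low counts (0.0267). Cx3cr1 (1.09 ± 0.27) lost its call in 8 of 12 fits that left out 1 library, with adjusted p up to 0.0813.

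The lysozymes rose in both populations with no called difference: Lyz2 was at 1725 to 2054 CPM in WT and 10214 to 13496 in KO CD4+ libraries, and at 1311 to 1617 in WT and 6131 to 8622 in KO CD4-CD8- libraries. Its interaction was 0.25 ± 0.19 (adjusted p = 0.593), and that of Lyz1 was −0.19 ± 0.24 (adjusted p = 0.794). Fcrls, an Fc receptor-like gene, was at most 0.604 CPM in the 6 WT libraries and at 112 to 329 in the 6 KO libraries, with an interaction of 0.79 ± 1.78 that leaves a wide interval. Of 14 monocyte markers tested, Ccr2, the clotting factor F13a1 and the pore-forming Mpeg1 were positive and Plac8 negative (2.48% and 1.28% of all genes were). Their list median was 0.26. Summed over the 16 markers, libraries held 3273 to 3504 CPM in WT CD4+, 15682 to 19916 in KO CD4+, 3665 to 4092 in WT CD4-CD8- and 11066 to 14221 in KO CD4-CD8- cells. Both lysozymes are on this list and make up most of the sum in KO libraries. Gene by gene, 8 of the 14 tested rose in CD4+ and 7 in CD4-CD8- cells (18.5% and 14.6% of all genes did), and 1 fell in each. Whether monocytes or altered cDC2 carry these transcripts was not tested.

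Other genes of myeloid or B cells also rose in both populations and rose more in CD4+ cells. Fcgr2b, the inhibitory IgG receptor, rose 6.57-fold and 2.19-fold, and Fcer2a, the low-affinity IgE receptor and an ADAM10 substrate, 15.3-fold and 3.09-fold. Fcer2a is also a B cell marker, and of 13 such markers tested it was the only 1 with a called interaction (3.76% of all genes had one). The intermediate filament gene Vim was at 361 to 382 CPM in WT and 1545 to 1901 in KO CD4+ libraries, and at 918 to 1136 in WT and 2017 to 2183 in KO CD4-CD8- libraries (interaction 1.16 ± 0.13, adjusted p = 8.24e-05). Lgals3, which encodes galectin-3, had an interaction of 1.12 ± 0.15, and its call is lost with the length offset and on log2 TPM.

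Fn1, which encodes the matrix protein fibronectin (chr1:71585520-71653200), showed 1.57, 0.913 and 0.467 CPM in WT CD4+, 115, 254 and 233 in KO CD4+, 8.28, 8.55 and 12.6 in WT CD4-CD8- and 122, 251 and 329 in KO CD4-CD8- libraries. The KO populations overlapped. Its interaction of 3.07 ± 0.66 (adjusted p = 0.0130) was not called without WT CD4+ library 2 (adjusted p = 0.0550), with the length offset, or on log2 TPM.

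A few genes were so low in WT CD4+ cells that a fold rests on 2 or 3 counts. Il1rl1, the IL-33 receptor, had 3 counts over the WT CD4+ group and 547 over the KO CD4+ group. Scaled by the total counts of each group alone, without TMM, this is a ratio of 172 (95% counting interval 58.6 to 838). The ratios that follow are of the same kind. Il1rl1 was at 1.32 to 2.18 CPM in WT and 14.2 to 30.1 in KO CD4-CD8- libraries. Alox5, the enzyme that starts leukotriene synthesis, had 2 against 205 counts, a ratio of 96.8 (26.5 to 805), and remained higher in KO CD4-CD8- (32.8 to 41.4 CPM) than in KO CD4+ libraries (2.27 to 5.29 CPM). Ccl24 had 2 against 81 counts, a ratio of 38.3 (10.3 to 321). Intervals cover counting error only. On log2(TPM + 1), the fitted interactions of Il1rl1 and Alox5 were −0.62 and −0.08 and not called.

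Among chemokines and receptors for migration the called interactions were positive. Of 17 chemokines tested 4 were positive (2.48% of all genes were) and 0 negative, with a median of 1.18: Ccl24, Ccl6, Ccl9 and Ccl22. At an unadjusted p under 0.05 there were 8 (2080 of all 13381 genes tested), and DESeq2 called 5. The interactions of 3 chemokines and 7 receptors lay below 0. Ccl6, a CC chemokine of myeloid cells, was at 53.8 to 55.4 CPM in WT CD4+, 793 to 1077 in KO CD4+, 105 to 106 in WT CD4-CD8- and 503 to 720 in KO CD4-CD8- libraries (1.54 ± 0.31, adjusted p = 0.00819). No groups overlapped. Ccl9, a related chemokine, had 1.18 ± 0.31, and that call was lost in all 12 fits that left out 1 library (adjusted p up to 0.117). Ccl22 lost its call in 10 of 12 and Ccl24 in 9 of 12.

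Of 20 migration receptors 6 were positive and 0 negative (2.48% and 1.28% of all genes were), with a median of 0.97. Besides Ccr2 and Cx3cr1 they included the chemerin receptor Cmklr1 (1.96 ± 0.47) and the sphingosine-1-phosphate receptors S1pr1 and S1pr2. S1pr1, which guides lymphocytes out of tissues, moved in opposite directions: it was at 0.400 to 0.786 CPM in WT and 1.88 to 5.95 in KO CD4+ libraries, and at 1.61 to 3.08 in WT and 0.652 to 0.997 in KO CD4-CD8- libraries. Neither pair overlapped (interaction 4.15 ± 0.70, adjusted p = 0.00251). S1pr2 rose 4.61-fold and 2.07-fold (1.15 ± 0.20).

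Several genes rose in CD4+ cells with no called change in CD4-CD8- cells. Hmox1, the heme-degrading enzyme typical of red pulp macrophages, was at 36.9, 21.9 and 26.0 CPM in WT CD4+ and 141, 163 and 167 in KO CD4+ libraries, against 33.5, 27.9 and 23.4 in WT and 28.3, 37.4 and 41.7 in KO CD4-CD8- libraries. KO CD4+ cells were thus the only group apart from the rest (2.14 ± 0.30, adjusted p = 6.92e-04). Among 15 red pulp macrophage markers Hmox1 and the efferocytosis receptor Mertk were positive and Treml4 negative (2.48% and 1.28% of all genes were), with a median of 1.38. Of the 15 interactions 13 lay above 0 and 2 below. In CD4+ cells 11 rose and 2 fell (18.5% and 16.6% of all genes did), and in CD4-CD8- cells 5 rose and 2 fell (14.6% and 11.3%). The sum of these markers was 693 to 778 CPM in WT CD4+, 1371 to 1609 in KO CD4+, 403 to 524 in WT CD4-CD8- and 694 to 861 in KO CD4-CD8- libraries. The part of such cells in the Hmox1 values was not tested. Maf, a macrophage and T cell factor, rose 2.57-fold in CD4+ cells and fell 1.71-fold in CD4-CD8- cells (2.14 ± 0.36).

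A pair of receptors found on lymphocytes and some DC behaved like Dok2. Cd226, an adhesion receptor, lay at 0.457 to 2.18 CPM in WT CD4+, 22.5 to 43.8 in KO CD4+, 32.2 to 60.2 in WT CD4-CD8- and 41.2 to 47.9 in KO CD4-CD8- libraries. Klrb1a lay at 0.121 to 0.267, 6.08 to 9.10, 4.98 to 9.24 and 4.69 to 9.04 CPM in the same order. For both, only WT CD4+ cells were apart, and the interactions were 4.92 ± 0.51 and 5.15 ± 0.52. In KO CD4+ libraries, where both are high, the NK marker sums were below those of WT CD4+ libraries, while the innate lymphoid sums and the mean log2 NK and T cell score were above them. The part of lymphoid cells in these values was not tested. Reads of Klrb1a may be shared with related Klrb1 genes.

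Among 29 Notch receptors, ligands and modifiers, 2 had a called interaction (3.76% of all genes did), in opposite directions, both of them receptors. Notch1 (chr2:26457903-26516663) was at 3.81, 3.40 and 4.14 CPM in WT CD4+, 12.6, 13.4 and 12.3 in KO CD4+, 24.5, 17.6 and 18.1 in WT CD4-CD8- and 14.8, 13.6 and 18.9 in KO CD4-CD8- libraries. The CD4+ groups were apart and the CD4-CD8- groups overlapped. It rose 3.38-fold in CD4+ cells and had −0.35 ± 0.15 in CD4-CD8- cells (interaction 2.11 ± 0.22, adjusted p = 6.93e-05), a call that is lost with the length offset and on log2 TPM. Notch4 (chr17:34564268-34588503) was at 5.68, 5.99 and 4.74 CPM in WT CD4+, 0.442, 1.76 and 0.788 in KO CD4+, 5.74, 7.75 and 7.18 in WT CD4-CD8- and 6.58, 11.6 and 9.35 in KO CD4-CD8- libraries. It fell 5.42-fold in CD4+ cells and had 0.41 ± 0.23 in CD4-CD8- cells, an interaction of −2.84 ± 0.40 (adjusted p = 5.62e-04), not called on log2(TPM + 1) (adjusted p = 0.0628). KO CD4+ cells alone were apart from the other groups. Notch2, the receptor that maintains ESAM-high cDC2, had −0.01 ± 0.16 (adjusted p = 0.986), as it rose 1.43-fold and 1.44-fold.

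Of 12 Notch target genes tested, 4 fell and 3 rose in CD4+ cells (16.6% and 18.5% of all genes did), and 8 fell and 1 rose in CD4-CD8- cells (11.3% and 14.6%). Dtx1, a regulator of Notch that Notch itself switches on, fell in both: it was at 328, 356 and 344 CPM in WT and 0.663, 10.9 and 2.08 in KO CD4+ libraries, and at 249, 259 and 265 in WT and 5.93, 3.76 and 14.5 in KO CD4-CD8- libraries. Levels in KO libraries overlapped and varied widely, and the interaction was −1.20 ± 0.74 (adjusted p = 0.495). Hes1, a repressor switched on by Notch, had −1.38 ± 0.60 (adjusted p = 0.267). Over the 12 targets 2 interactions were positive and 0 negative (2.48% and 1.28% of all genes were), with a median of 0.55. These 2 genes, Gata3 and Il2ra, are also genes of T and innate lymphoid cells. Gata3 was at 4.01 to 8.22 CPM in WT CD4-CD8- libraries and at most 1.48 in the other groups.

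Of 13 genes of ESAM-high cDC2, 12 fell in CD4+ cells (16.6% of all genes did) and 12 fell in CD4-CD8- cells (11.3% of all genes did). A called interaction was seen for 1 of them (3.76% of all genes had one). Esam was at 73.5 to 79.5 CPM in WT CD4+, 1.38 to 4.10 in KO CD4+, 24.3 to 33.4 in WT CD4-CD8- and 1.23 to 1.76 in KO CD4-CD8- libraries. It fell 31.0-fold and 19.7-fold, an interaction of −0.66 ± 0.41 (adjusted p = 0.497). Clec4a4, the inhibitory lectin DCIR2, fell 5.91-fold and 5.14-fold (−0.20 ± 0.21). Mmp9, a gelatinase, was the member called (−1.96 ± 0.48, adjusted p = 0.0312), a call lost in 9 of 12 fits without 1 library. The list's median was 0.07 against −0.02 for all genes.

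**Figure D4:**
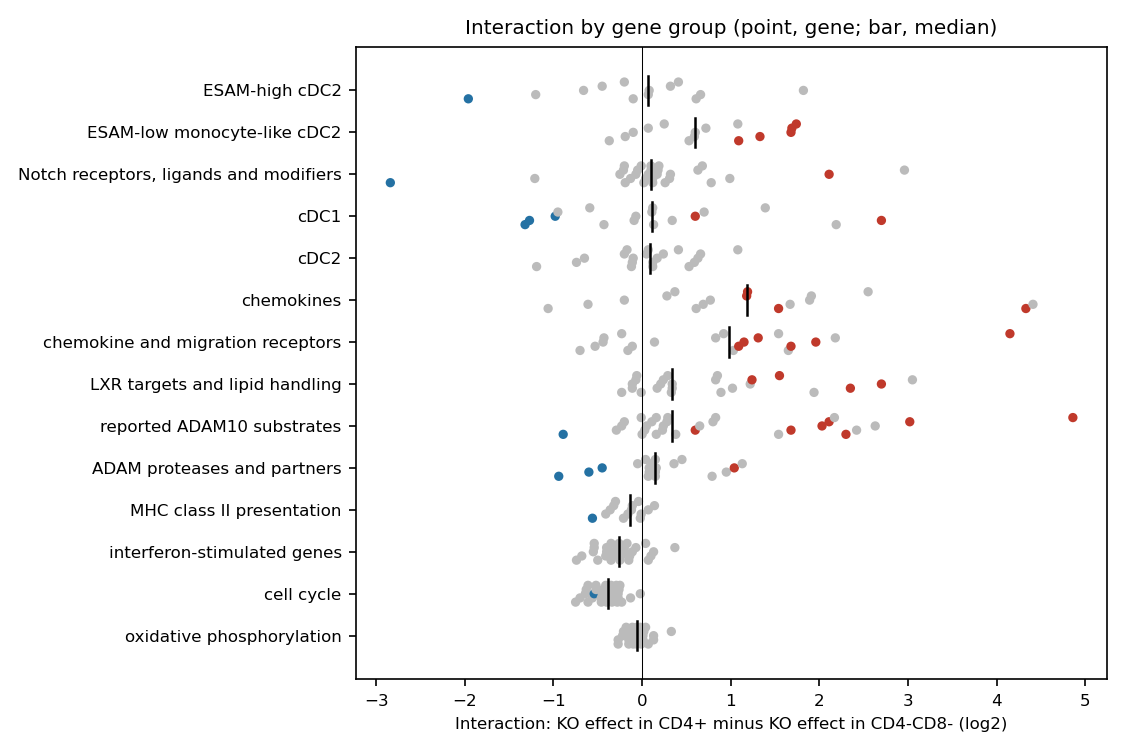
Interaction on the log2 scale (x axis) of each tested member of 14 gene groups (y axis), red for called positive, blue for called negative, grey for not called, and a black bar for the median. Chemokines and migration receptors have medians of 1.18 and 0.97, while Notch1 and Notch4 lie at 2.11 and −2.84 in a group centred near 0.

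Several of the negative genes were higher in CD8+ cDC1 than in either cDC2 population. Agpat3, an enzyme of phospholipid synthesis (chr10:78269178-78352489), was at 43.3, 50.6 and 45.4 CPM in WT CD4+, 4.98, 8.08 and 6.88 in KO CD4+, 52.1, 45.2 and 47.5 in WT CD4-CD8- and 21.8, 29.9 and 23.5 in KO CD4-CD8- libraries. The WT populations overlapped and the KO populations were apart. It fell 7.00-fold in CD4+ and 1.93-fold in CD4-CD8- cells, with an interaction of −1.86 ± 0.19 (adjusted p = 6.46e-05). In CD8+ cells it stood at 202 CPM in WT and 229 in KO.

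Sema4f, a semaphorin (chr6:82911885-82939769), was at 4.71, 5.17 and 2.74 CPM in WT CD4+, 0.719, 1.14 and 0.645 in KO CD4+, 4.53, 5.04 and 5.24 in WT CD4-CD8- and 7.06, 10.1 and 7.28 in KO CD4-CD8- libraries. It fell 5.00-fold in CD4+ cells and rose 1.65-fold in CD4-CD8- cells, and neither pair overlapped. Its interaction was −3.04 ± 0.33 (adjusted p = 8.22e-05), lost with the length offset and on log2 TPM. CD8+ cells held 48.3 CPM in WT and 72.9 in KO.

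Wdfy4, which cDC1 need for cross-presentation, was at 1040 to 1385 CPM in WT CD4+, 333 to 342 in KO CD4+, 860 to 1216 in WT CD4-CD8- and 632 to 856 in KO CD4-CD8- libraries (−1.32 ± 0.21, adjusted p = 0.00194). Id2, a repressor of helix-loop-helix factors that cDC1 require, fell 3.29-fold and 1.36-fold (−1.27 ± 0.20, adjusted p = 0.00135). Treml4, the receptor Gpr4 and Anxa6 fell 5.49-fold, 10.9-fold and 3.26-fold in CD4+ and 1.76-fold, 1.86-fold and 1.73-fold in CD4-CD8- cells. Plac8, a gene of several leukocytes (chr5:100553725-100572245), showed 467, 638 and 557 CPM in WT CD4+, 123, 91.8 and 97.3 in KO CD4+, 535, 641 and 526 in WT CD4-CD8- and 406, 309 and 314 in KO CD4-CD8- libraries. Again the WT populations overlapped and the KO populations were apart (−1.69 ± 0.20, adjusted p = 1.77e-04). Mycl, a MYC family factor of DC, fell 1.84-fold in CD4+ cells and had 0.11 ± 0.13 in CD4-CD8- cells.

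Transcripts of cDC1 also differed among the 4 groups. Xcr1, the chemokine receptor that defines cDC1, was at 2.74 to 3.99 CPM in WT CD4+, 3.70 to 7.97 in KO CD4+, 38.1 to 40.6 in WT CD4-CD8- and 69.3 to 134 in KO CD4-CD8- libraries. As a share of the mean in CD8+ cells of the same genotype this was 0.459%, 0.600%, 5.27% and 9.18%, and for Clec9a, another cDC1 receptor, 5.71%, 8.33%, 14.4% and 19.1%. Agpat3 stood at 22.9%, 2.90%, 23.8% and 10.9% of its CD8+ level in the same order, Sema4f at 8.71%, 1.14%, 10.2% and 11.2%, and Notch4 at 6.75%, 1.02%, 8.51% and 9.33%. Id2 stood at 36.2%, 7.5%, 42.3% and 21.2%, Wdfy4 at 38.7%, 9.58%, 34.2% and 21.1%, and Plac8 at 70.7%, 33.9%, 72.5% and 112%. The shares of the negative genes thus varied. In CD4+ cells the Xcr1 levels of WT and KO libraries overlapped. Those of Clec9a did not, at no more than 25.6 CPM in WT and no less than 38.3 in KO CD4+ libraries. Cd8a stood at 0.168%, 0.317%, 0.556% and 0.841% of its CD8+ level in the same order of groups. Its levels in WT and KO libraries overlapped in both populations.

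Summed over 17 cDC1 genes, libraries held 1659 to 1952 CPM in WT CD4+, 1267 to 1297 in KO CD4+, 2241 to 2584 in WT CD4-CD8- and 2516 to 3554 in KO CD4-CD8- cells, against 12090 to 14033 in WT CD8+ cells. The fall of the sum in CD4+ cells is set by Wdfy4, itself a negative gene. Of that sum it held 1040 to 1385 CPM in WT and 333 to 342 in KO CD4+ libraries. In CD4+ cells 9 of the 17 genes rose and 4 fell, and in CD4-CD8- cells 10 rose and 2 fell. By the interaction, 2 were positive (Cd36 and the adhesion molecule Cadm1), 3 negative (Id2, Wdfy4 and Snx22) and 12 not called, Xcr1 (−0.43 ± 0.39) and Clec9a (0.13 ± 0.18) among the last. Of all genes 2.48% were positive and 1.28% negative. Of the 171 negative genes, 85 (49.7%) were highest of the WT groups in CD8+ cells, 84 (49.1%) in CD4+ and 2 (1.17%) in CD4-CD8- cells. Of all genes tested 40.6%, 35.4% and 24.0% were. Among the 35 that were negative by at least 2-fold, these counts were 24 (68.6%), 9 (25.7%) and 2 (5.71%). A negative interaction itself favours a low WT CD4-CD8- level, which raises the other shares, so they describe these genes and test nothing. In KO CD4-CD8- cells, 23 of the 35 (65.7%) were highest in library 2, which also had the highest Xcr1, against 34.4% of all genes. The 35 were picked by an interaction that uses these same libraries, so this share describes them and tests nothing. Without KO CD4-CD8- library 2, 101 negative genes were called. The part of cDC1 transcripts in the negative interactions was not tested.

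The opposite sides of the interaction differed in how the populations compared before and after ADAM10 loss. In WT, 2241 genes (16.7%) differed between CD4+ and CD4-CD8- cells, 1288 lower (9.63%) and 953 higher (7.12%) in CD4+ cells. By at least 2-fold, 720 were lower (5.38%) and 128 higher (0.957%). In KO, 1064 genes differed (7.95%), 641 lower (4.79%) and 423 higher (3.16%). Of the 332 positive genes, 235 (70.8%) were lower in WT CD4+ than in WT CD4-CD8- cells and not called between the KO populations. A further 50 stayed lower and 19 became higher. The median size of the difference was 1.65 in WT and 0.439 in KO on the log2 scale, and it was smaller in KO for 298 of the 332. Across all genes these medians were 0.199 and 0.168. Since the interaction is the KO difference minus the WT difference, these values describe the called genes and test nothing further. Lower levels in WT CD4+ cells include the T and NK cell genes above.

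Of the 171 negative genes, 77 (45.0%) were higher in WT CD4+ cells and not called in KO, and 66 (38.6%) were not called in WT and lower in KO CD4+ cells. Their median difference was 0.318 in WT and 0.282 in KO, with 87 of 171 smaller in KO. Positive genes thus mostly differed between populations in WT alone, while the negative genes divided between those that differed in WT alone and those that differed in KO alone.

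**Figure D5:**
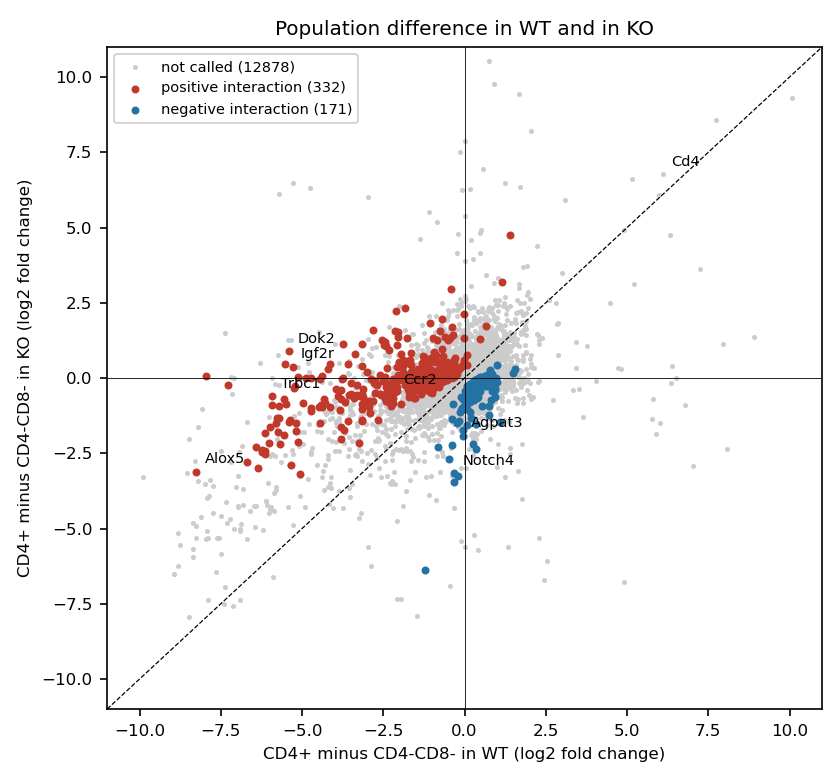
Difference between populations (log2 fold change, CD4+ minus CD4-CD8-) of each gene in WT (x axis) and KO (y axis), with positive interactions in red, negative in blue, other genes in grey and equality dashed. Most red points lie left of 0 in WT and near 0 in KO, as Ccr2 at −2.14 and −0.46, while Agpat3 lies at −0.06 and −1.91.

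Within the proteases, Adam15 rose 7.74-fold and 3.78-fold (1.04 ± 0.16, adjusted p = 0.00126), a call lost with the length offset (adjusted p = 0.117) and on log2(TPM + 0.1) (adjusted p = 0.0664). Adam19 fell 2.28-fold in CD4+ cells and had −0.25 ± 0.13 in CD4-CD8- cells (−0.94 ± 0.19, adjusted p = 0.00807). Adam8 (−0.60 ± 0.15) and Tspan14, a tetraspanin partner of ADAM10 (−0.45 ± 0.10), were also negative. In this group 1 of 19 genes was thus positive and 3 negative (2.48% and 1.28% of all genes were). The calls of Adam8 and Tspan14 were lost in 8 and 2 of 12 fits without 1 library. Zbtb46, a transcription factor of cDC, fell 1.48-fold in CD4+ cells and had 0.00 ± 0.07 in CD4-CD8- cells (−0.57 ± 0.11, adjusted p = 0.00482), and H2-Ob, a modulator of MHC class II loading, fell 1.36-fold and had 0.11 ± 0.08 (−0.56 ± 0.11). They were the only called members of 12 pan-cDC genes and of 14 MHC class II genes (3.76% of all genes had a called interaction). For Adam19, Zbtb46 and H2-Ob the call is lost on log2 TPM.

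Of 33 cell cycle genes, 32 fell in CD4+ cells (16.6% of all genes did) and 25 in CD4-CD8- cells (11.3%). All 33 interactions were below 0, with a median of −0.38, and 12 had an unadjusted p under 0.05 (2080 of all 13381 genes did). Only 1, the replication helicase subunit Mcm5 (−0.54 ± 0.14, adjusted p = 0.0475), was called (3.76% of all genes were). That call was lost in 11 of 12 fits without 1 library.

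No member was called among 20 cDC2 genes, 20 of MHC class I presentation, 29 interferon-stimulated genes, 24 immediate early genes and 29 of oxidative phosphorylation (edgeR). At an unadjusted p under 0.05 there were 7, 1, 2, 0 and 0, against 2080 of all 13381 genes tested. DESeq2 and limma on log2(TPM + 1) called 0 in each. Among 24 Toll-like and cytosolic sensors edgeR called 0, DESeq2 3 and limma 0, with 7 at an unadjusted p under 0.05. Irf4, a cDC2 factor, was at 134 to 168 and 109 to 126 CPM in WT and KO CD4+ libraries and at 90.9 to 108 and 118 to 135 in CD4-CD8- libraries, an interaction of −0.74 ± 0.23 (adjusted p = 0.0996). It was called with the replicate block (adjusted p = 0.0351), the block by genotype and number (0.0216), the fit of 12 libraries (0.0146) and no filter on low counts (0.0468). Its levels did not overlap between genotypes in either population, lower in KO CD4+ and higher in KO CD4-CD8- libraries, but neither change was called. The inflammatory cytokine Tnf was negative (−1.32 ± 0.32, adjusted p = 0.0312), the only one of 17 cytokines, and lost its call in 9 of 12 fits without 1 library.

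Further calls given above rest on the choice of unit or of length correction. With the transcript length offset the interactions of Adam8, Tspan14, Cadm1, Ccl9, Ccl22, Ccl24, Cd3d, Cx3cr1, Gata3, Il7r, Tox, Klre1, Alox5, Il1rl1, Mcm5, Mmp9, Tnf and Gm49388 were not called. H2-Ob also lost its call there. On log2(TPM + 1) and log2(TPM + 0.1) those of Adam8, Tspan14, Ccl9, Ccl22, Cd3d, F13a1, Gata3, Il7r, Alox5, Il1rl1, Mcm5, Mmp9, Tnf, Wdfy4 and Gm49388 were not called, and on log2(TPM + 0.1) those of Ccl6, Clec10a, Cx3cr1 and Fcgr3 were not either. Cadm1, Klre1, Mcm5, Mmp9, Tnf and Tox were not called in the fit of 12 libraries.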

How the data were processed

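Per the labels' protocols, poly(A) libraries were sequenced as single-end reads. Salmon 0.14.1, FastQC 0.11.8 and GRCm38 are named in the submitters' processing notes. The authors deposited estimated counts per transcript, and TPM per transcript, which scale each library by transcript length and total. The strand setting is not given in the sources used here, so overlapping genes on opposite strands, like near copies, cannot be told apart.

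Counts were summed per gene and rounded to whole counts. After filterByExpr, 13381 genes of all 18 libraries were fitted with edgeR 4.0.16 (R 4.3.3) after TMM scaling (6 group means, 12 residual degrees of freedom, quasi-likelihood F test, two-sided, Benjamini-Hochberg adjustment). Calls are adjusted p-values under 0.05, and "rose" or "fell" is written of called genes. The SE comes from the F statistic. Gene positions are those of GENCODE M21 on GRCm38. The fit was tested on simulated data. Alternatives were DESeq2 1.42.0, limma 3.58.1 on log2(TPM + 1) and log2(TPM + 0.1), a fit of the 12 libraries, RLE scaling, other filters (none, 5 CPM), a transcript length offset, replicate blocks, an NK and T cell marker score, and leaving out each library. Replicate libraries of a group differed by more than counting error.

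The contrast, the 45 gene lists (14 of them markers) and the genes always named were chosen with earlier results of these data known. Named genes were the 5 largest interactions of each class of at least 10 genes (at least 5 CPM in the highest group), the 10 largest in each direction, up to 4 called members per list by p, and the genes always named, 112 in all, of which 95 were called; 3 of these are not reported here.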

Additional observations from a re-analysis of the deposited data

Results flagged for a closer look

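By the test of the difference itself (interaction term, edgeR, adjusted p under 0.05), the effect of ADAM10 loss differed between CD4+ and CD4-CD8- cDC2 in the positive direction for 332 genes and in the negative direction for 171. The named genes among them are given with the interaction on the log2 scale.

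Genes that rose in both populations and rose more in CD4+ cells were Alox5 5.14, Il1rl1 3.73, Tnip3 3.60, Cyp2ab1 3.55, Dpysl3 3.50, Fn1 3.07, Ngfr 3.02, Cd36 2.70, F13a1 2.61, Fcer2a 2.30, Clec4b1 1.93, Clec10a 1.74, Fcgr3 1.69, Ccr2 1.68, Sema4a 1.68, Fcgr2b 1.58, Pparg 1.55, Ccl6 1.54, Plin2 1.24, Ccl22 1.19, Ccl9 1.18, Vim 1.16, S1pr2 1.15, Lgals3 1.12, Cx3cr1 1.09, Adam15 1.04, Pfkp 0.86, Tagln2 0.74, Mpeg1 0.61 and Cadm1 0.60. Genes that rose in CD4+ cells and were not called in CD4-CD8- cells were Dok2 6.29, Klrb1a 5.15, Cd226 4.92, Aoah 4.51, Ccl24 4.33, Il18rap 3.53, Abca1 2.35, Il2ra 2.29, Hmox1 2.14, Notch1 2.11, Mertk 2.03, Klrk1 1.33, Il7r 1.31 and Clec2d 0.83. Genes that rose in CD4+ and fell in CD4-CD8- cells were Igf2r 5.67, Trbc1 5.30, Lat 4.95, Il12rb1 4.89, Cd27 4.86, Gata3 4.78, Cd3d 4.46, S1pr1 4.15, Cd55 3.51 and Maf 2.14. Genes not called in CD4+ cells that fell in CD4-CD8- cells were Skap1 5.01, Bcl11b 4.71, Trat1 4.47, Igha 4.42, Cd3g 4.36, Tox 4.12, Cd247 3.95, Klrb1c 3.38, Klre1 2.43, Ikzf3 1.96 and Tnfrsf9 1.62, most of them genes of T or NK cells.

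Among negative genes, those that fell in both and fell further in CD4+ cells were Serpinb2 −2.70, Gpr4 −2.54, Mmp9 −1.96, 2900026A02Rik −1.87, Agpat3 −1.86, Plac8 −1.69, Treml4 −1.64, Wdfy4 −1.32, Id2 −1.27, Anxa6 −0.91, Adam8 −0.60 and Mcm5 −0.54. Those that fell in CD4+ cells and were not called in CD4-CD8- cells were Notch4 −2.84, Gpr157 −1.58, Arid3b −1.10, Rnf227 −1.05, Mycl −0.99, Adam19 −0.94, Zbtb46 −0.57, H2-Ob −0.56 and Tspan14 −0.45. Those not called in CD4+ cells that rose in CD4-CD8- cells were Adora3 −1.83, Tnf −1.32, Gm21970 −1.29, Gm49388 −1.13 and Kmo −0.56. Sema4f (−3.04) fell in CD4+ and rose in CD4-CD8- cells.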

How the results depend on the processing

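The fit of 12 libraries, DESeq2, RLE scaling, no filter and the 5 CPM filter kept the count of called interactions within 1.5 times 503. The transcript length offset gave 192 (178 shared with the 503), 140 positive and 52 negative, with 3095 and 2184 genes for the knockout effects in CD4+ and CD4-CD8- cells and 1259 and 542 for the WT and KO population differences. Limma on log2(TPM + 1) gave 42 negative interactions and 527 KO differences, and on log2(TPM + 0.1) it gave 252 interactions (170 shared), 21 of them negative, and 546 KO differences. With the lymphocyte (NK and T) score as covariate 11 interactions were called (8 positive, 3 negative), 629 knockout effects in CD4-CD8- cells, and 26 WT and 228 KO differences. The cause was not tested. The median interaction of all genes shifted from −0.02 to 0.11 on log2(TPM + 0.1).

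Leaving out 1 library gave 306 to 549 interactions, 211 to 341 positive and 87 to 217 negative, 3930 to 4683 and 2669 to 3614 knockout effects in CD4+ and CD4-CD8- cells, and 1517 to 2381 WT and 663 to 1011 KO differences. The interactions fell to 306 without WT CD4+ library 2, 318 without KO CD4+ library 3, 312 without WT CD4-CD8- library 1 and 330 without KO CD4-CD8- library 2, and 257 of the 503 were called in all 12 such fits.

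Same-numbered libraries of the populations correlated at 0.26, 0.21 and 0.49 in WT and 0.46, 0.06 and 0.22 in KO (deviations from group means across 9804 genes), against −0.38 to 0.18 for different numbers, and 11 of 12 libraries correlated best with their own number. The labels do not say that a number marks a shared animal or batch, and 1 of 6 pairs was not over 0.1, the limit set for every pair, so the numbers were not taken as pairs; the correlations are a hint from the data, not the design. With a replicate block 582 interactions were called, and with a replicate block by genotype and number 850 (500 shared), 506 positive and 344 negative.

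On log2(TPM + 1) the interactions of Alox5, Il1rl1 and Ngfr turned to −0.08, −0.62 and −0.02, and that of Ikzf3 to −0.19 with the lymphocyte score, none of them called. Among the 112 named genes, 95 were called, and calls were lost for 86 with the lymphocyte score, 48 on log2(TPM + 0.1), 43 with the length offset, 39 on log2(TPM + 1) and 9 in the fit of 12 libraries. At 3 libraries a group, genes of a few counts carry wide intervals.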

Other observations

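Some genes with a positive interaction also differed by genotype in CD8+ cDC1, which are outside the contrast. Ccr2 was at 141 ± 9.26 CPM in WT and 659 ± 38.3 in KO CD8+ cells (SD, n = 3), and Cd226 at 7.18 ± 2.65 and 38.2 ± 5.81, with no overlap between genotypes for either. Other positive genes had overlapping genotypes there: Dok2 was at 1.66 ± 0.945 and 1.95 ± 0.339 CPM, Hmox1 at 23.6 ± 7.20 and 26.4 ± 2.66, Notch1 at 13.5 ± 1.56 and 13.5 ± 1.67, and Fn1 at 0.974 ± 0.350 and 1.34 ± 0.868. Igf2r, at 0.259 ± 0.0671 CPM in WT CD4+ cells, was at 40.1 ± 8.50 CPM in WT and 64.0 ± 6.47 in KO CD8+ cells. Klrb1a was at most 0.151 CPM in all CD8+ libraries. Of the negative genes, Adora3, an adenosine receptor, was at 28.9 ± 4.66 and 46.1 ± 1.55 CPM, and Serpinb2, a protease inhibitor, at 21.2 ± 4.25 and 2.64 ± 0.795 CPM. These are values only, and differences between CD8+ cells and the cDC2 populations were not tested here.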
